A study of Homo sapiens with 48 samples.

Results

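The proteins of the mitochondrial ribosome are encoded in the nucleus and were followed here through the genes whose symbols begin with MRPL or MRPS and a number. The platform annotation held 77 such symbols, and 76 had a probe set above log2 4 on 3 or more arrays, of 11356 genes that passed this filter in all. The probe set of highest mean stood for each gene. Of the 76 members 75 encode proteins, and the other, MRPL20-AS1, is a non-coding antisense gene that is given apart. The symbol that did not pass, MRPL45P2, is a pseudogene. All 75 protein genes were above log2 6 on all 48 arrays, with single values between 6.57 and 13.8, so the filter on low values chose none of them for a difference between groups. By their known places 50 belong to the large subunit, among them MRPS30 and MRPS18A despite their names, and 25 to the small subunit. By descent 45 have a bacterial counterpart and 30 are known from mitochondria alone.

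The mitochondrial ribosome translates the few messages of mitochondrial DNA, which encode core subunits of the respiratory chain and of ATP synthase. Its RNAs are made in the organelle and all its proteins are imported, so that assembly needs the output of both genomes. Proximal tubule cells in the kidney are rich in mitochondria and rely on oxidative phosphorylation for solute transport.

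The cells were HK-2, a line of immortalised epithelium from the proximal tubule of a human kidney. They received vehicle or 1 of 4 compounds, CsA, Fk, Ra and Nnm, which the labels name only in this short form and place in a nephrotoxic class called Tox 1. Nnm was given at a low and a high dose, and amounts were not stated in the labels. There were 16 groups of 3 arrays, called biological replicates in the labels. The CsA set held CsA and vehicle controls at 12 h and 48 h, and its labels carry the words lab 3. The Fk and Ra set held Fk, Ra and the controls that both share at 12 h and 48 h. The Nnm set held a low dose, a high dose and shared controls at 24 h and 48 h. All groups are of a single cell line without a genetic change. Cells had been plated 24 h earlier and were near confluence when treatment began. The labels do not say whether the replicates came from separate thaws or days, so p-values measure the spread between these cultures.

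Values are log2 expression levels of RNA, and no protein was measured. A difference is the mean of 3 treated arrays minus the mean of 3 control arrays of the same set and time, with its SE from limma. The median SE over genes and treatments was 0.26. A gene is called, and said to have risen or fallen, at a Benjamini-Hochberg adjusted p under 0.05 over all 11356 genes in that comparison. The background is the percent of all genes tested that were called in the same direction. Counts at an unadjusted p under 0.05 are given without such a share over all genes. RNA per cell and the make-up of the cultures cannot be told apart in such bulk samples. Of 12 proximal tubule and epithelial markers 6 passed the filter. KRT8, KRT18, KRT19, PAX8 and CDH2 were above log2 4 on all 48 arrays. The mature tubule genes CUBN, LRP2, AQP1, ANPEP and SLC34A1 were above it on 0. Markers of leukocytes and of other nephron segments passed in 0 of 4 and 0 of 4. Of 5 fibroblast markers COL1A1 and DCN were above the level on all 48, COL1A2 on 1, and COL3A1 and PDGFRB on 0. Of 4 endothelial markers PECAM1 was above it on 41, and VWF, CDH5 and KDR on 0. The array Ra 48 h replicate 2 stood apart, with an upper quartile of all probe sets of 6.203, and Fk 12 h replicate 3 was next at 6.846. Counts for Ra at 48 h and for Fk against Ra at 48 h are therefore given with each array centred on its own median and without that array. Values of single genes there are given with centring, and not without that array.

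The stretches before the start sites of 4 members are shown because these genes were among those that fell together under Nnm, and because motifs of factors known to drive genes for mitochondrial proteins could be searched in them. Sequences are from RefSeq, build GRCh38.p14, 5′ to 3′ in the direction of the gene, and cover the 250 bases before the start of transcription. MRPL12 lies on the plus strand (chr17:81703117-81703366), MRPL27 on the minus strand (chr17:50373185-50373434), MRPL20 on the minus strand (chr1:1407294-1407543) and MRPL54 on the plus strand (chr19:3762432-3762681). Capitals mark the core CCGGAAG of the ETS factors, a family that includes GABP, or its reverse complement CTTCCGG. Over these 250 bases MRPL12 had 0 matches and MRPL54 had 1. MRPL27 and MRPL20 had 2 each.
MRPL12: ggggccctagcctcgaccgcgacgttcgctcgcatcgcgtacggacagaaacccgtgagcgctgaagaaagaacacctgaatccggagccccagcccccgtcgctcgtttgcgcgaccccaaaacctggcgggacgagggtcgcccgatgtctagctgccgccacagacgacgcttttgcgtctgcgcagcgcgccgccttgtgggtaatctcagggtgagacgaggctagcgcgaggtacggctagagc
MRPL27: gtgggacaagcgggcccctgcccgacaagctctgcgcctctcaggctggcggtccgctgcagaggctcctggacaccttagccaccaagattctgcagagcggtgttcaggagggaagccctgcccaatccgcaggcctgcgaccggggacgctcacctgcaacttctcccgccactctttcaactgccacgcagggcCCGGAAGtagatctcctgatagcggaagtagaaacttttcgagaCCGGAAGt
MRPL20: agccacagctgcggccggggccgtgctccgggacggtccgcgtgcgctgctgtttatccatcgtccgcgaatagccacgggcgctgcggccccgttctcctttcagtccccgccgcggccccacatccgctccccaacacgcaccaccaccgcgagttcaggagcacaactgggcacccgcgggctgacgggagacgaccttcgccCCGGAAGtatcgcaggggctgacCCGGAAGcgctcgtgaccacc
MRPL54: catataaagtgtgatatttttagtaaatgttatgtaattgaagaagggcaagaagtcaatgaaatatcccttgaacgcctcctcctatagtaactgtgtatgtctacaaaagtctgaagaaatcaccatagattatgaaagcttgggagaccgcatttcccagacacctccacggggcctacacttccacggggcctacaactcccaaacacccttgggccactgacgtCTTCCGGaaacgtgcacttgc

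In MRPL27 the matches begin 52 and 8 bases before the start, in MRPL20 44 and 21 bases, and in MRPL54 21 bases. A promoter of 300 bases, 250 before to 50 after the start, was found for 67 of the 75 protein genes. Both strands were searched, and matches of different motifs may overlap. CCGGAAG stood in 29 of the 67 (43.3%), against 22.7% of the 9302 other tested genes and 10.3% of all 35116 promoters in the table. The YY1 motif AAGATGGCG stood in 12 (17.9%), against 4.72% of other tested genes and 1.75% of all promoters. The E-box CACGTG stood in 9 (13.4%), against 13.1% and 7.26%. The other 3 motifs matched 1 member each. That is 1.49%, below the share of other tested genes for each. They were the NRF1 motif (MRPL17; 2.78% of other tested genes and 1.24% of all promoters), TGACGTCA of the CREB and ATF factors (MRPL4; 3.84% and 1.85%) and TGATGNAA of ATF4 and CHOP (MRPL55; 2.8% and 3.62%). The ETS motif was held by 15 of the 33 members with a promoter that fell under the high dose of Nnm at 24 h (45.5%), and by 14 of the other 34 (41.2%). The share was similar in both groups, and the difference was not tested. A match is a run of letters and does not show that a factor binds there.

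Under Nnm the genes of both ribosomal subunits were lower than in controls, and 0 were called higher at either dose or time. The high dose at 24 h showed the most. There 37 of 75 members fell, against a background of 12.5% of all genes called lower, and the median difference was -0.44 where that of all genes was -0.01. In all 71 of the 75 lay below their controls, against 50.9% of all genes, and in 48 every treated array lay below every control (19.2% of all genes). At 48 h 20 fell under the high dose (background 7.88%, median -0.31). Under the low dose 16 fell at 24 h (background 4.71%, median -0.36) and 4 at 48 h (background 2.45%, median -0.22). The backgrounds of genes called higher were 10.5% and 8.89% at the high dose and 3.58% and 2.77% at the low dose, at 24 h and 48 h. In either direction 5.22% of all genes were called at the low dose at 48 h.

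**Figure D1:**
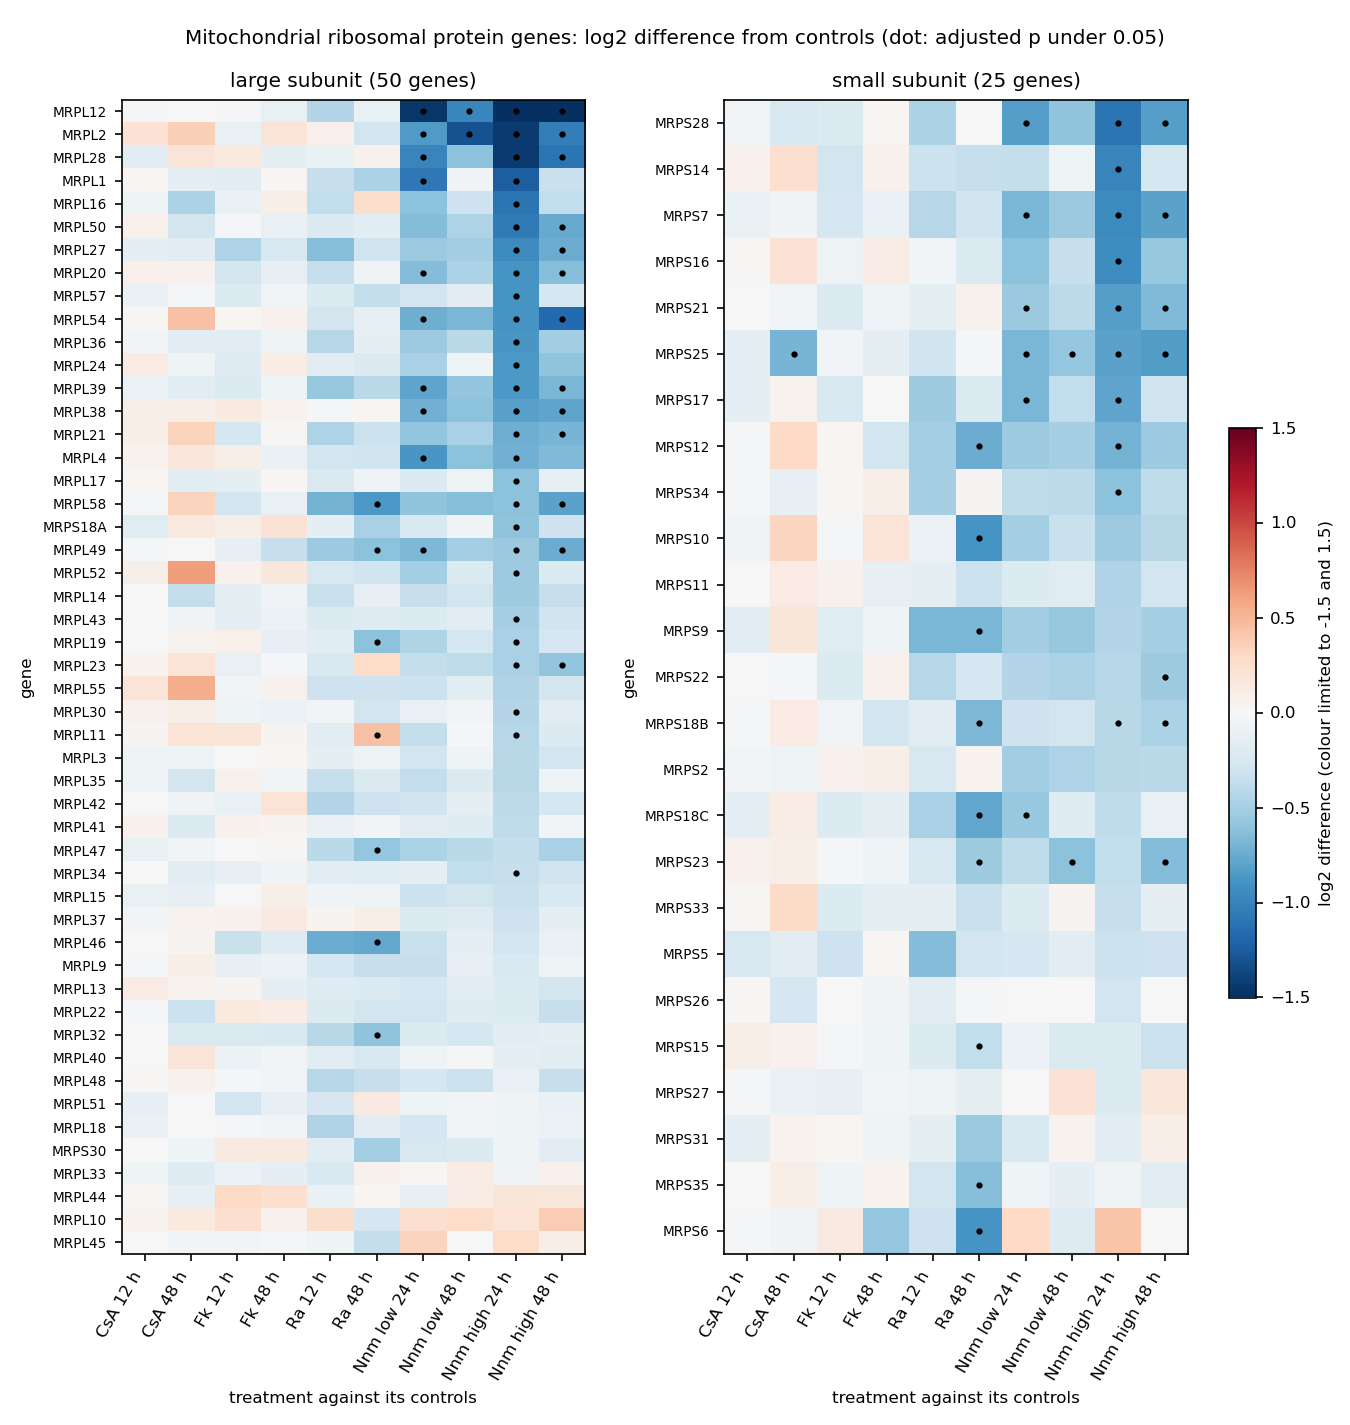
Log2 difference from controls (colour, limited to 1.5 either way) of the 50 large and 25 small subunit genes (vertical axis) in the 10 treatments (horizontal axis), with a dot where the adjusted p is under 0.05. The Nnm columns are blue over most genes, with 37 dots at the high dose at 24 h. The CsA and Fk columns hold 1 dot between them, and the dots of Ra at 48 h rest largely on 1 array.

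The large subunit's stalk, which recruits translation factors, held the member with the lowest difference. MRPL12, the mitochondrial form of the bacterial stalk protein L7/L12, stood at 10.03, 9.35 and 10.2 in the 24 h controls and at 7.67, 8.62 and 7.89 under the high dose (replicates 1, 2 and 3). Under the low dose it stood at 8.18, 8.71 and 8.31. All 6 treated arrays lay below all 3 controls, and replicate 2 had both the lowest control and the highest treated value. MRPL12 fell by 1.80 ± 0.22 at the high dose (SE; 3.48-fold; adjusted p = 5.33e-06) and by 1.46 ± 0.22 at the low dose (2.75-fold; adjusted p = 0.000119). At 48 h the controls were at 9.69, 9.19 and 9.69, the low dose at 8.45, 8.64 and 8.52, and the high dose at 7.73, 8.52 and 7.77. The groups again did not overlap with the controls, and the falls were 1.51 ± 0.22 at the high dose (adjusted p = 2.37e-05) and 0.98 ± 0.22 at the low dose (adjusted p = 0.00642). Over all 16 groups the 4 lowest means of MRPL12 were those of the 4 Nnm treatments, between 8.01 ± 0.45 and 8.54 ± 0.10 (SD, n = 3). The doses did not differ beyond the test, and the other 12 groups had means between 9.02 ± 0.13 and 9.86 ± 0.45.

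MRPL10, which anchors MRPL12 at the stalk base, was the only member above its controls in all 4 Nnm comparisons, and was singled out after its values were seen. Its 24 h controls stood at 10.28, 10.18 and 10.24, against 10.7, 10.27 and 10.49 under the low dose and 10.51, 10.39 and 10.43 under the high dose. The high-dose arrays lay just above the controls without overlap. At 48 h the controls were at 10.55, 10.28 and 10.42 and the high dose at 11.02, 10.57 and 10.81. MRPL10 passed the test in none of the 4 (adjusted p between 0.101 and 0.376), and passed at the high dose at 48 h once the replicate number was a block (0.38, adjusted p = 0.0378). MRPL11, the other protein of the stalk base, fell by 0.43 ± 0.16 at the high dose at 24 h (adjusted p = 0.0452).

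Genes for some proteins near the peptidyl transferase centre were among the members that fell. The members at this site were not counted as a class. MRPL2 stood at 8.86, 8.22 and 8.68 in the 24 h controls and at 7.57, 7.05 and 6.83 under the high dose, a fall of 1.44 ± 0.27 (2.71-fold; adjusted p = 0.000338). At 48 h its controls stood at 8.64, 8.0 and 8.26, the low dose at 7.42, 6.99 and 6.57 and the high dose at 7.53, 7.05 and 7.2. No treated array reached a control, and the low dose was not above the high dose here. MRPL2 fell by 1.31 ± 0.27 under the low dose (adjusted p = 0.00286) and by 1.04 ± 0.27 under the high dose (adjusted p = 0.00711). A second probe set of MRPL2 gave smaller differences of the same sign, -0.81 and -0.54 at the high dose at 24 h and 48 h and -0.47 and -0.43 at the low dose. MRPL27 and MRPL16, which also line this region, fell by 0.96 ± 0.24 (adjusted p = 0.00436) and 1.09 ± 0.23 (adjusted p = 0.00101) at the high dose at 24 h.

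MRPL28, a large subunit protein with a bacterial counterpart, stood at 8.85, 8.36 and 8.88 in the 24 h controls and at 7.05, 7.92 and 6.81 under the high dose. The fall was 1.43 ± 0.20 (2.7-fold; adjusted p = 1.76e-05), with replicate 2 again the highest treated array. MRPL28 also fell at the low dose at 24 h (-0.99, adjusted p = 0.00242) and at the high dose at 48 h (-1.09, adjusted p = 0.000366). MRPL1, the protein of the mobile L1 stalk at the exit side, stood at 9.7, 9.78 and 10.12 in the 24 h controls and at 8.38, 9.19 and 8.31 under the high dose. It fell by 1.24 ± 0.27 (2.36-fold; adjusted p = 0.00137). Genes for proteins known from mitochondria alone fell as well. MRPL50 fell by 1.06 ± 0.24 at the high dose at 24 h (adjusted p = 0.00178), and MRPL54 fell at the high dose at 48 h, from controls at 9.43, 9.47 and 9.62 to 7.92, 8.89 and 8.21 (-1.17 ± 0.22, adjusted p = 0.000457). MRPL58, a peptidyl-tRNA hydrolase of the release factor family that is built into the ribosome, fell by 0.80 ± 0.22 at that dose and time (adjusted p = 0.00983).

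**Figure D2:**
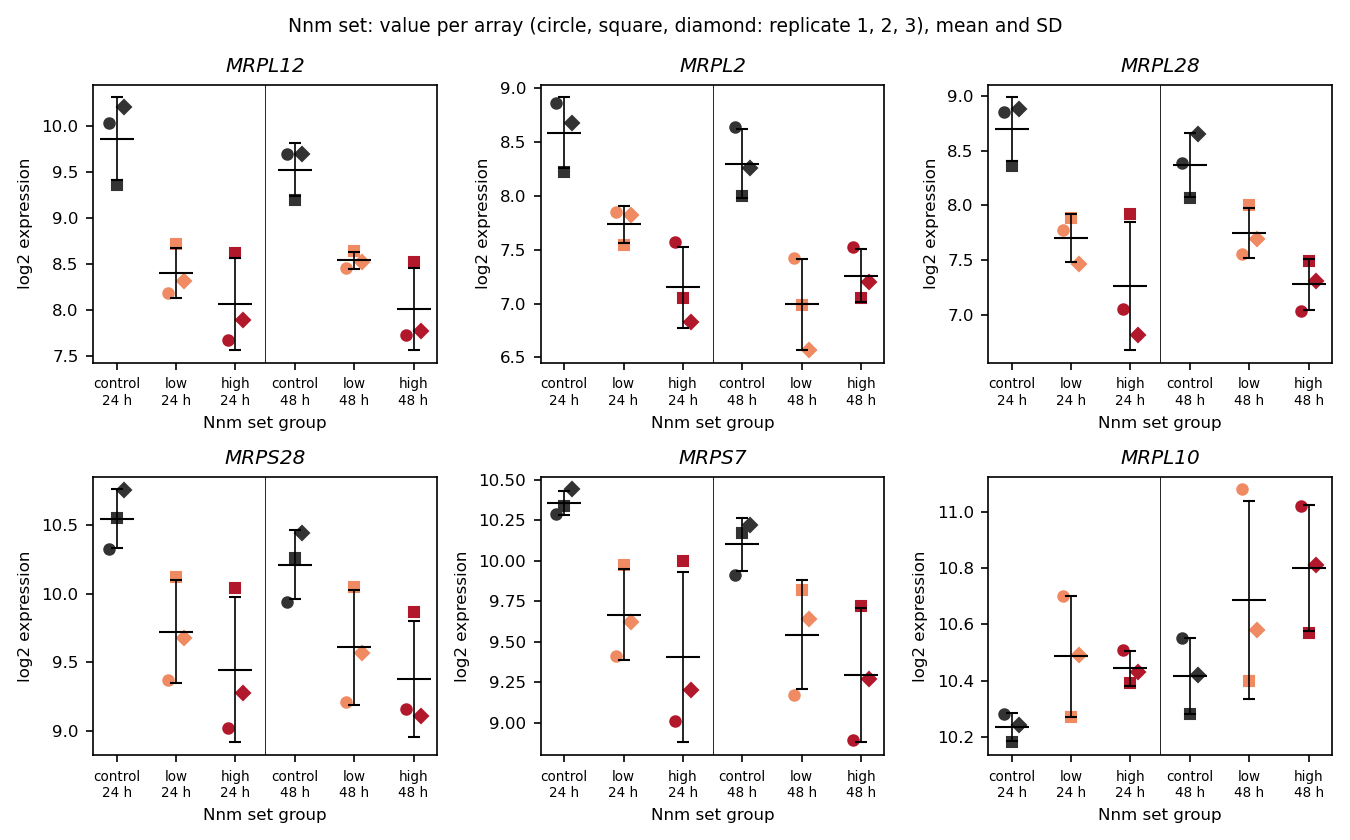
Log2 expression of 6 members (1 panel each) in the 18 arrays of the Nnm set, by group on the horizontal axis; symbols are replicates 1, 2 and 3 and bars the mean and SD (n = 3). MRPL12, MRPL2, MRPL28, MRPS28 and MRPS7 lie lower in treated than in control arrays with replicate 2 closest to its control in most panels, while MRPL10 lies at or above its controls.

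In the small subunit MRPS28, which is related to bacterial S1, stood at 10.33, 10.55 and 10.76 in the 24 h controls and at 9.02, 10.04 and 9.28 under the high dose. It fell by 1.10 ± 0.25 (2.15-fold; adjusted p = 0.00178). MRPS7, a protein of the small subunit's head, stood at 10.29, 10.34 and 10.44 in these controls and at 9.01, 10.0 and 9.2 under the high dose, a fall of 0.95 ± 0.20 (adjusted p = 0.00104). In both genes the treated arrays lay below the controls without overlap, and replicate 2 was the least changed. MRPS12, a protein of the decoding site, fell by 0.71 (adjusted p = 0.0168), MRPS14 by 0.99 (adjusted p = 0.00334) and MRPS16 by 0.93 (adjusted p = 0.0129). The arrays of MRPS16 overlapped. MRPS25, a small subunit protein known from mitochondria alone, was 1 of the 3 members called in all 4 Nnm comparisons, with MRPL12 and MRPL2. Calls in all 4 were not counted over all genes. At 24 h MRPS25 is named after its values were seen. Its 48 h controls stood at 9.28, 9.09 and 9.18, the low dose at 8.5, 8.76 and 8.54 and the high dose at 8.22, 8.51 and 8.3. The doses fell by 0.58 ± 0.15 (adjusted p = 0.0196) and 0.84 ± 0.15 (adjusted p = 0.00036). The other probe set of MRPS25 gave smaller differences of the same sign. It was at -0.49 and -0.37 at the low and high dose at 48 h, and at -0.32 and -0.04 at 24 h, where the probe set used was at -0.68 and -0.80.

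Both subunits and both origins held called members. At the high dose at 24 h 27 of 50 large subunit genes fell (median -0.47) and 10 of 25 small subunit genes (median -0.43). The background called lower was 12.5%. Of the members with a bacterial counterpart 24 of 45 fell, and of those known from mitochondria alone 13 of 30. At 48 h the counts were 13 of 50 and 7 of 25 by subunit, and 10 of 45 and 10 of 30 by origin (background 7.88%). These differences between classes were not tested. Some members did not pass at the high dose at 24 h. They include MRPL3 (-0.42, adjusted p = 0.0858), MRPL41 (-0.38, adjusted p = 0.0974), MRPS30 (-0.06, adjusted p = 0.88) and MRPL45 at the membrane side of the exit tunnel (0.27, adjusted p = 0.292). DAP3, a GTP-binding protein of the small subunit with another style of symbol, was at -0.13 (adjusted p = 0.562). The non-coding MRPL20-AS1 fell by 0.88 (adjusted p = 0.019), on a probe set of its own. MRPL20 fell by 0.89 (adjusted p = 0.00213).

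The 4 Nnm comparisons share controls within a time. Over them 67 of 75 members lay below 0 in all 4, 40 were called in at least 1 and 35 in none. In single Nnm comparisons between 48.1% and 50.9% of all genes lay below 0. The counts over all 4 were not made for all genes, so they have no background here. Of the 37 that fell at the high dose at 24 h 18 also fell at 48 h, which is 48.6% of the first list and 90.0% of the second. The low dose lists shared 3, or 18.8% of the 16 and 75% of the 4. With the replicate number as a block the high dose lists shared 27, or 52.9% of 51 and 87.1% of 31. The low dose lists then shared 17, or 51.5% of 33 and 89.5% of 19. The like overlaps over all genes were not taken. Between doses at the same time limma called 0 members in either direction at 24 h (unadjusted p under 0.05 in 7) and 0 at 48 h (in 3). The background of these comparisons was 0.00881% and 0.0176%. The median difference of high minus low was -0.11 at 24 h, with 55 members below 0, and -0.09 at 48 h. The 3 members of lowest p at 24 h were MRPS14 (-0.63 ± 0.24), MRPL57 (-0.60 ± 0.22) and MRPL2 (-0.59 ± 0.27; adjusted p between 0.603 and 0.649). At 48 h they were MRPL12 (-0.53 ± 0.22), MRPL54 (-0.49 ± 0.22) and MRPL28 (-0.47 ± 0.20; adjusted p = 1.0). A difference between doses was thus not detected, and these sizes do not show that the doses act alike. The change of the Nnm effect from 24 h to 48 h passed in 0 members at the low dose (background 0%; 1 at an unadjusted p under 0.05) and in 0 at the high dose (background 0.00881%; 4 at an unadjusted p under 0.05). The median change was 0.11 and 0.16.

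Replicate numbers pair the arrays of the Nnm set, and replicate 2 was the least changed. Against the control of the same number, the median member at the high dose at 24 h was at -0.54, -0.26 and -0.59 in replicates 1, 2 and 3, with 67, 64 and 69 of 75 below 0. At the low dose at 24 h the medians were -0.42, -0.21 and -0.44, and at 48 h -0.28, -0.09 and -0.37. At the high dose at 48 h they were -0.36, -0.21 and -0.47. The same medians over all genes lay between -0.02 and 0.03. MRPL12 shows the difference between replicates, with -2.36, -0.73 and -2.31 at the high dose at 24 h. With the replicate number as a block 51 members fell at the high dose at 24 h (background 18.1%). The block called 33 at the low dose at 24 h (9.7%) and 19 at the low dose at 48 h (6.27%). At the high dose at 48 h it called 31 lower and 1 higher, MRPL10 (12.9% and 14.4%).

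The counts also moved with single arrays, and so did the background, given here as the percent of all genes called lower in the same fit. Of the 37 at the high dose at 24 h 15 remained called with any 1 of the 6 arrays left out, among them MRPL12, MRPL2, MRPL28, MRPL1, MRPS28 and MRPL16. The count was 16 without high dose replicate 1 (4.69%), 20 without high dose replicate 3 (5.92%), 20 without control replicate 3 (7.3%) and 24 without control replicate 1 (7.83%). At the high dose at 48 h it was 7 without high dose replicate 1 (2.7%), 9 without high dose replicate 3 (3.24%) and 9 without control replicate 3 (4.01%), and 5 of the 20 remained called throughout. At the low dose at 24 h it was 7 without control replicate 1 (2.05%) and 3 without low dose replicate 1 (1.15%), low dose replicate 3 (1.36%) or control replicate 3 (0.96%), and 2 remained throughout (MRPL12 and MRPL28). At the low dose at 48 h it was 1 without low dose replicate 1 (0.502%), 2 without low dose replicate 3 (0.916%), 2 without control replicate 3 (0.828%) and 11 without low dose replicate 2 (3.95%), and MRPL2 alone remained throughout. High against low dose at 24 h called 8 members lower without high dose replicate 2 (5.09%). The change of the high-dose effect called 3 higher without high dose 24 h replicate 2, where 1.33% of all genes were called higher.

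**Figure D3:**
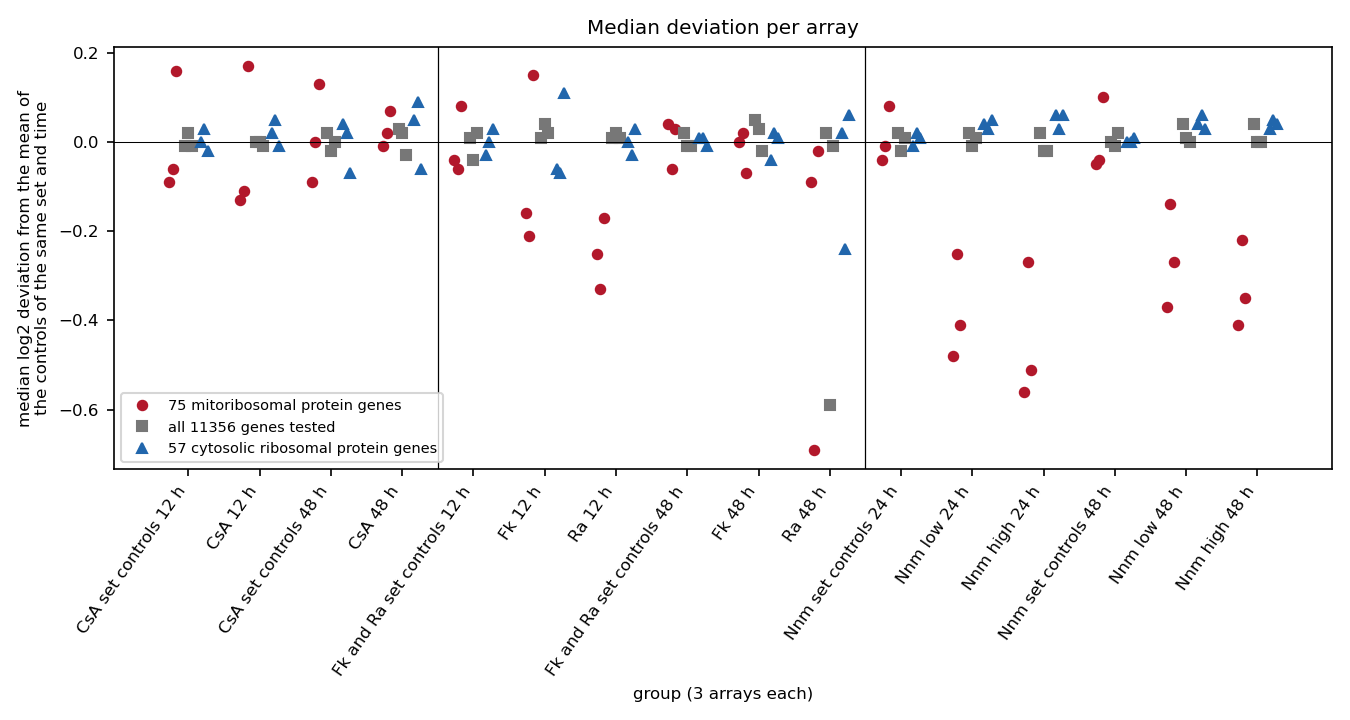
Median log2 deviation of each array (points, 3 per group on the horizontal axis) from the mean of its controls, for the 75 members, all 11356 genes and 57 cytosolic ribosomal protein genes. In the Nnm groups the members lie between -0.14 and -0.56 while the other medians lie near 0, and in Ra 48 h replicate 2 members and all genes are both low, at -0.69 and -0.59.

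Other genes of mitochondrial gene expression fell beside the members at the high dose of Nnm at 24 h. The genes for proteins of the cytosolic ribosome did not pass. The background of this comparison was 12.5% lower and 10.5% higher. Limma called 0 of 57 cytosolic ribosomal protein genes in either direction (1 at an unadjusted p under 0.05), with a median of 0.04. Of 20 mitochondrial aminoacyl-tRNA synthetases, which charge the tRNAs, 8 fell (median -0.51). SARS2 stood at 4.73 ± 0.54 against 6.73 ± 0.51 (SD, n = 3), a fall of 2.00 ± 0.28 (adjusted p = 1.76e-05), and MARS2 was at -1.59. Of 16 translation factors 6 fell and 2 rose, and the share that rose was near the background. The elongation factors GFM1 and TUFM fell by 1.11 ± 0.22 (adjusted p = 0.000646) and 0.69 ± 0.17 (adjusted p = 0.00419), and the release factor MTRF1 rose by 1.41 ± 0.39 (adjusted p = 0.00847). Of 23 genes for ribosome assembly and rRNA modification 7 fell, with the rRNA methyltransferase TFB1M at -1.39.

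Of 28 genes for mitochondrial transcription and RNA processing 12 fell (background 12.5%). TRNT1, which adds the CCA end to tRNAs, fell by 1.99 ± 0.40 (adjusted p = 0.000701), and POLRMT, the mitochondrial RNA polymerase, by 1.02 ± 0.34 (adjusted p = 0.0284). POLRMT was at -0.13 at 48 h (adjusted p = 0.845). TFAM, which packages mitochondrial DNA, was at -0.05 (adjusted p = 0.883). Of 17 regulators 5 rose and 1 fell (background 10.5% higher and 12.5% lower), so the share that fell was below the background. The ETS factor subunits GABPA and GABPB1 rose by 1.16 ± 0.29 (adjusted p = 0.0048) and 0.92 ± 0.22 (adjusted p = 0.00349), the coactivator PPRC1 fell by 1.11 ± 0.24 (adjusted p = 0.00165), and MYC was at -0.60 (adjusted p = 0.231). The stress factor DDIT3 rose by 2.18 ± 0.79 (adjusted p = 0.0408) with overlapping arrays. The calls of POLRMT and DDIT3 were each lost when any of several single arrays was left out.

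The respiratory chain list, nuclear genes for subunits of the complexes and ATP synthase, had 22 of 66 called lower at the high dose at 24 h (33.3%, median -0.27) and 29 at 48 h (43.9%). SDHA, the catalytic subunit of complex II, fell by 1.19 ± 0.21 at 24 h (adjusted p = 0.00024). The background called lower at the high dose was 12.5% at 24 h and 7.88% at 48 h. At the low dose 11 fell at 24 h and 11 at 48 h (background 4.71% and 2.45%). With the replicate number as a block the low-dose counts were 21 and 26 (9.7% and 6.27%). At 48 h under the high dose 4 of the synthetases, 5 of the translation factors, 4 of the transcription genes and 2 of the assembly genes fell. The lists have the sizes given for 24 h, and the share of the assembly genes was near the background. Of the cytosolic genes 1, RPL39L, rose by 1.03 (background 8.89% higher). With the block the transcription genes called at the high dose at 48 h were 11, not split by direction here. In that fit 12.9% of all genes were called lower, 14.4% higher and 27.4% in either direction.

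**Figure D4:**
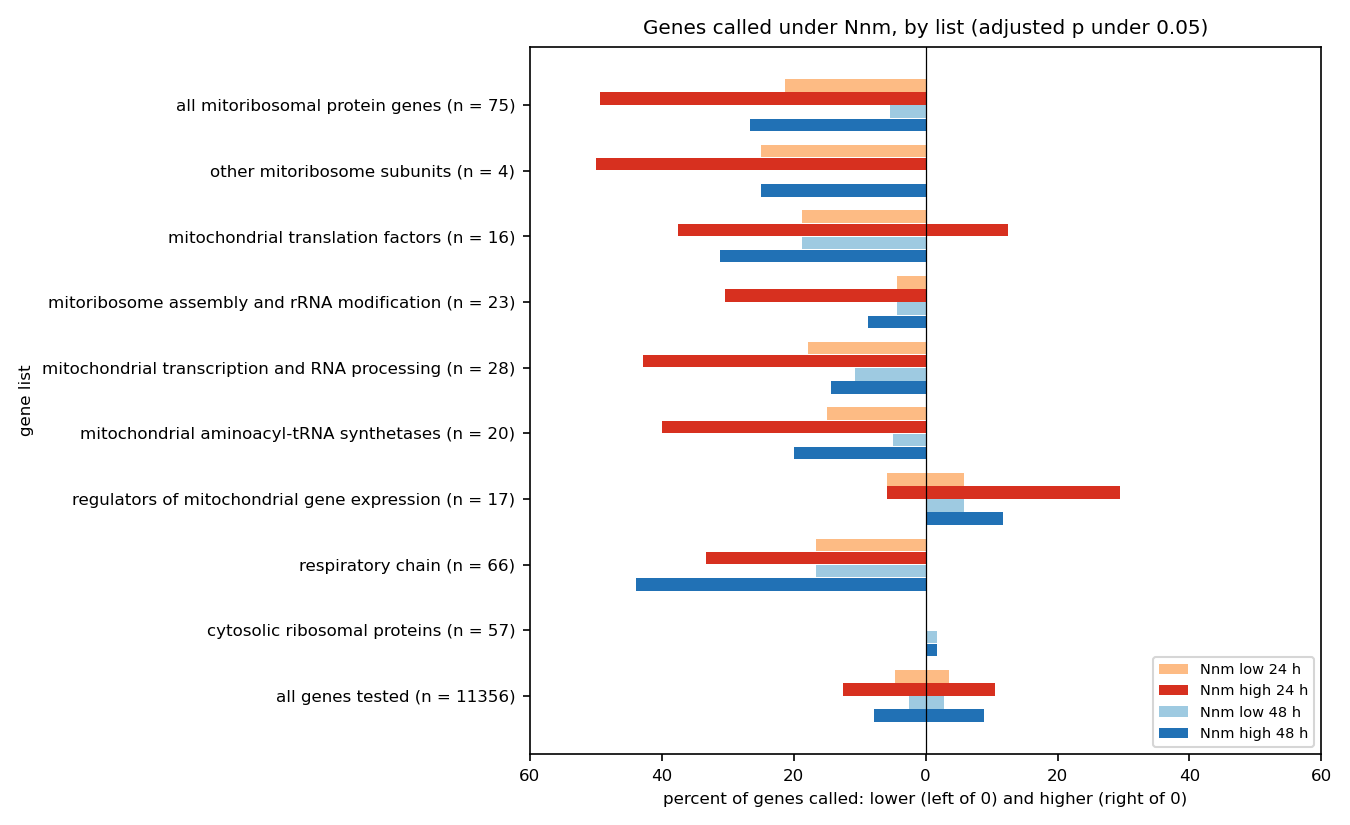
Percent of each gene list called lower (left) and higher (right) in the 4 Nnm comparisons, with lists on the vertical axis and percent on the horizontal axis. At the high dose at 48 h the respiratory chain reaches 43.9% lower, and the cytosolic ribosomal proteins show 0 lower calls in all 4.

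At 12 h under Ra most members lay below their controls, and none passed the test. Limma called 0 members (background 0.0176% lower, 0.0528% higher and 0.0704% in either direction). At an unadjusted p under 0.05 there were 20, a count without a background here. The median was -0.24, and 72 of 75 members lay below their controls (46.9% of all genes did). In 45 members the Ra arrays lay below the controls without overlap, against 15% of all genes. MRPS5, a small subunit protein with a bacterial counterpart, stood at 10.6, 10.59 and 10.67 in the controls and at 9.95, 9.89 and 10.05 under Ra, with a difference of -0.65 ± 0.14 that missed the threshold (adjusted p = 0.0504). MRPS9 stood at 9.96, 9.74 and 9.89 against 9.25, 9.15 and 9.14 (-0.68 ± 0.19, adjusted p = 0.204). MRPL46 stood at 8.72, 8.7 and 8.72 against 8.22, 7.87 and 7.83 (-0.74 ± 0.22, adjusted p = 0.232). All 3 genes had every Ra array below every control. With arrays centred MRPS5 and MRPL46 were called (adjusted p = 0.027 and 0.0499). In that fit 0.106% of all genes were called lower and 0.123% higher.

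Most members stood higher under Fk than under Ra at 12 h, without a call. Fk minus Ra was above 0 in 66 of 75, where 48.5% of all genes lay below 0, with a median of 0.20, and in 28 the Fk arrays lay above the Ra arrays without overlap (10.2% of all genes). Limma called 0 members (background 0.00881%; 11 at an unadjusted p under 0.05). The members of lowest p were MRPS9 (0.50 ± 0.19, adjusted p = 0.516), MRPL49 (0.42 ± 0.16, adjusted p = 0.536) and MRPS12 (0.54 ± 0.22, adjusted p = 0.548). Fk 12 h replicate 3 lay apart from its replicates, with a member median of 0.15 against -0.16 and -0.21. Without it the median of Fk minus Ra was 0.10, with 54 members above 0.

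At 48 h the Ra counts moved with 1 array. Of the members 15 fell and 1 rose (background 15.6% lower and 2.97% higher), with a median of -0.27 where that of all genes was -0.18. The median member stood at -0.09 in replicate 1, -0.69 in replicate 2 and -0.02 in replicate 3. With arrays centred 3 fell and 3 rose (background 7.03% and 9.79%) and the median was 0.01, with all genes at 0.10. Without replicate 2 the count was 1 fall and 1 rise, with 3.47% of all genes called lower and 3.72% higher. It was 6 without control replicate 1 and 10 without control replicate 2, all lower (6.91% and 8.07% of all genes), and 0 of the 16 members remained called with any 1 array left out. MRPS6, a small subunit protein, stood at 12.44, 12.05 and 11.82 in the controls and at 12.28, 10.51 and 10.85 under Ra, so the groups overlapped in replicate 1 (-0.89 ± 0.24, adjusted p = 0.00793, centred -0.61 with adjusted p = 0.0278). MRPL58 stood at 10.24, 10.1 and 9.86 against 9.71, 8.6 and 9.3, without overlap (-0.86 ± 0.22, adjusted p = 0.0053, centred -0.58 with adjusted p = 0.0443). MRPL11 of the stalk base stood at 7.65, 7.63 and 7.94 against 8.25, 7.81 and 8.47 and rose (0.44 ± 0.16, adjusted p = 0.049, centred 0.72 with adjusted p = 0.00217). The other members called with centred arrays were MRPL23 (0.55), MRPL51 (0.41) and MRPS35 (-0.36), all 3 named after their values were seen.

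Between Fk and Ra at 48 h 11 members were higher under Fk and 0 lower (background 15.2% and 2.12%), with a median of 0.22 beside 0.20 for all genes. MRPS10 had the largest difference (1.09 ± 0.26, adjusted p = 0.00418, centred 0.76 with adjusted p = 0.0277). With arrays centred 2 were higher, MRPS10 and MRPS35, and 3 lower, MRPL11, MRPL23 and MRPL51 (background 5.41% and 9.05%). With 1 array left out at a time 0 of the 11 members remained called in every fit. Leaving out Ra replicate 2 gave a count of 2, both lower under Fk (2.28% of all genes). Leaving out Fk replicate 1 gave 2 higher (4.94%), Fk replicate 2 gave 3 higher (8.96%) and 1 lower (1.28%), and Ra replicate 1 gave 24 higher (24.8%). The change of the Ra effect from 12 h to 48 h passed in 0 members (background 3.62%). With arrays centred MRPL11 (0.92), MRPL51 (0.70) and MRPS5 (0.70) were higher (background 1.59% higher and 1.43% lower). Without centring the count was 5 lower when Ra 48 h replicate 1 was left out (12.3% of all genes). It was 1 lower when control 48 h replicate 3 was left out (7.34%).

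Under CsA and Fk limma called 1 member in all, and the medians lay near 0. It called 0 members under CsA at 12 h (background 0%; 0 at an unadjusted p under 0.05), 0 under Fk at 12 h (0%; 2) and 0 under Fk at 48 h (0%; 2). The medians were -0.01, -0.07 and -0.04. Without CsA 12 h replicate 3 the first median was -0.13, with 58 of 75 members below 0, and without 12 h control replicate 3 it was 0.07, with 24 below 0. Without Fk 12 h replicate 3 the Fk median at 12 h was -0.19, with 63 below 0, and it lay between -0.09 and 0 with any other of the 6 arrays left out. Treated arrays lay wholly below the controls in 3 members under CsA at 12 h (3.09% of all genes) and wholly above in 0 (3.25%). Under CsA at 48 h they lay below in 6 (6.45%) and above in 7 (7.8%). Under Fk these counts were 9 below (6.49%) and 0 above (9.29%) at 12 h and 4 below (3.89%) and 1 above (6.18%) at 48 h. The member called was MRPS25 under CsA at 48 h, 1 of 75 members called lower with 0 higher (background 0.722% lower and 0.299% higher; median 0.01). It stood at 8.9, 8.65 and 8.97 in the controls and at 8.19, 8.11 and 8.13 under CsA. The groups did not overlap, and the fall was 0.70 ± 0.15 (adjusted p = 0.0176, or 0.00394 with the replicate number as a block). With arrays centred it missed the threshold (adjusted p = 0.0742), and the other probe set of MRPS25 was at -0.05. The count was 0 without CsA replicate 2 or 3 or control replicate 1 or 3, where between 0.00881% and 0.37% of all genes were called lower, and 2 without CsA replicate 1, 1 in each direction (2.57% lower and 0.872% higher). With the block the large subunit genes MRPL52 (0.63) and MRPL55 (0.54) were called higher too (background 4.39% in either direction). They are named after their values were seen. In the CsA set controls MRPS25 stood at 9.18 ± 0.01 at 12 h and 8.84 ± 0.17 at 48 h (SD, n = 3).

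The controls themselves differed between times. In the CsA set 12 members fell from 12 h to 48 h and 1 rose (background 7.56% and 6.12%), with a median of -0.27. In the Fk and Ra set 11 fell and 1 rose (background 9.71% and 10.1%, or 19.8% in either direction), with a median of -0.24. The sets have separate controls, and 7 members fell in both, which is 58.3% of the first list and 63.6% of the second. The like overlap over all genes was not taken, so this share is not read as particular to the members. MRPL16 stood at 9.15, 9.23 and 9.17 at 12 h and at 8.02, 8.06 and 8.33 at 48 h in the CsA set, and at 9.37, 9.34 and 9.41 and then 8.0, 8.3 and 8.87 in the Fk and Ra set. The times did not overlap in either set, and the falls were 1.04 ± 0.23 (adjusted p = 0.00259) and 0.98 ± 0.23 (adjusted p = 0.0025). MRPS28 fell by 0.86 ± 0.25 (adjusted p = 0.0174) and 0.85 ± 0.25 (adjusted p = 0.0124). With the replicate number as a block 24 fell and 3 rose in the CsA set (background 12.9% and 11.1%).

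**Figure D5:**
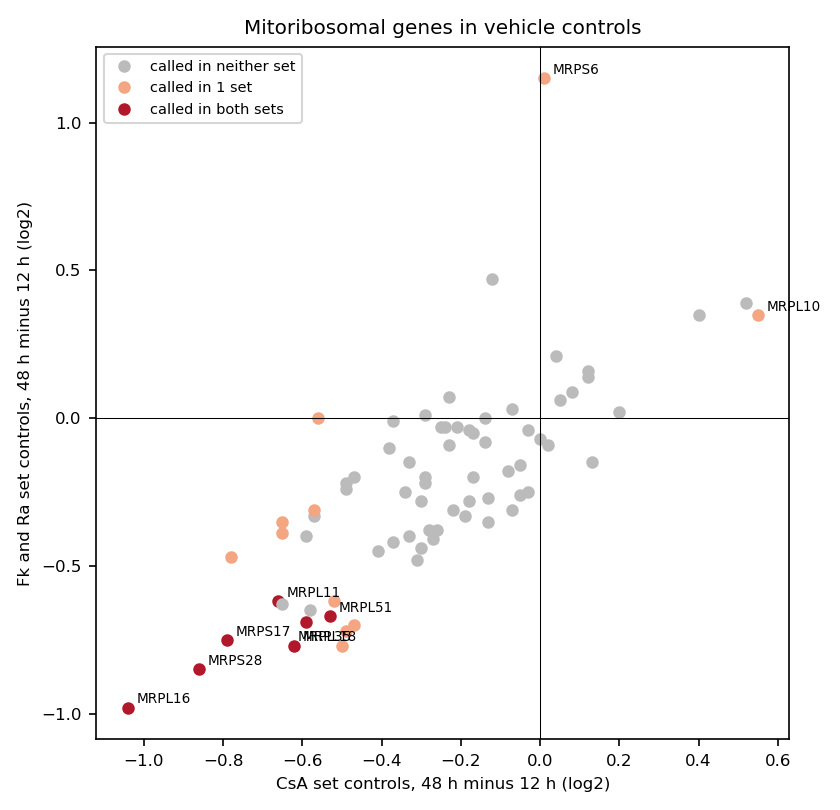
Log2 difference of 48 h minus 12 h in vehicle controls for the 75 members (points), in the CsA set (horizontal axis) and the Fk and Ra set (vertical axis). Most points lie below 0 on both axes, with MRPL16 near -1 in both and MRPS6 high in the Fk and Ra set alone.

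The single rises were of different genes. MRPL10 rose in the CsA set from 10.08, 10.23 and 10.1 to 10.65, 10.75 and 10.66 (0.55 ± 0.16, adjusted p = 0.0204), and was at 0.35 in the Fk and Ra set (adjusted p = 0.129). MRPS6 rose in the Fk and Ra set from 11.01, 10.9 and 10.96 to 12.44, 12.05 and 11.82 (1.15 ± 0.24, adjusted p = 0.000839), and was at 0.01 in the CsA set. The 2 sets were not tested against each other. The stress factors DDIT3 and ATF4 rose in the same controls, DDIT3 by 5.39 ± 0.79 and 4.97 ± 0.79 and ATF4 by 1.53 ± 0.28 and 1.13 ± 0.28, and their part in these differences was not tested. The count in the CsA set was 3 lower without 12 h replicate 3 (3.31% of all genes) and 3 lower without 48 h replicate 2 (2.72%). In the Fk and Ra set it was 6 lower (6.22%) and 1 higher (6.35%) without 48 h replicate 2. In the Nnm set controls 26 members were lower at 48 h than at 24 h without overlap (13.6% of all genes) and the median was -0.22, but limma called 0 (background 0%; 10 at an unadjusted p under 0.05). MRPL1 came nearest (-0.81, adjusted p = 0.789), and passed with the replicate number as a block (adjusted p = 0.0432).

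Where a gene had several probe sets they mostly had the same sign. Of the 75 members 27 had another probe set that passed the filter, and in 45 of 47 called cases, counting each other probe set in each treatment, it had the same sign. In 14 of the 47 its difference was less than 0.5 times that of the probe set used, or of the other sign. The exceptions were MRPL19 at the high dose of Nnm at 24 h (-0.49 against 0.22) and MRPS18C at the low dose at 24 h (-0.57 against 0.05), both named after their values were seen.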

How the data were processed

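Total RNA of HK-2 cells was hybridised to 48 oligonucleotide arrays. The deposited values are on a log2 scale for 54675 probe sets and were made by the authors with GCRMA per the submitters' processing notes (version not given in the sources used here). They were used without further normalization. Of these, 62 control probe sets, 1801 with several symbols and 11721 without a listed symbol were left out, and the probe set of highest mean above log2 4 on 3 or more arrays stood for each of 11356 genes. A linear model with 1 mean per group was fitted over all 48 arrays with limma 3.58.1 (R 4.3.3; lmFit, eBayes), and 22 contrasts were tested two-sided, with Benjamini-Hochberg adjustment over all genes in each. Precision is limited by having 3 arrays in each group. The fit was tested on simulated data for the high dose of Nnm at 24 h, with noise independent between arrays and so without pairing of replicates. Of 50 genes changed by log2 0.5 it called 6, of 50 changed by 1 it called 25. At 1.5 and 2 it called 42 and 47 of 50, and 3 unchanged genes were called. Only these genes were changed in the simulation, while 23.1% of all genes were called in the data. The Benjamini-Hochberg threshold was therefore stricter in the simulation, and its shares do not give those of the data.

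Named members were the 8 largest called rises and falls in each comparison (12 for the high dose of Nnm at 24 h), the 3 of lowest p where none was called, up to 4 called genes of each list, and a fixed set with MRPL12 and TFAM. The members and lists were chosen with earlier results of these data known. Same-numbered arrays deviated together (correlations above 0.1) in 18 of 18 pairs of the CsA set and 45 of 45 of the Nnm set, so the numbers were taken as pairing there, and in 19 of 45 in the Fk and Ra set. Alternatives were centred or quantile-normalised arrays, no filter or a filter at log2 6, the replicate number as a block, each set alone, the mean of probe sets, and each array left out. Combinations with centring were added after seeing the data.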

Additional observations from a re-analysis of the deposited data

How the results depend on the processing

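With the filter at log2 6 all 22 counts of called members stayed within 1.5 times the values reported, and no named gene that was called turned its sign in any alternative run. Centring gave 0 under CsA at 48 h, 2 under Ra at 12 h, 6 under Ra at 48 h, 9 under low Nnm at 48 h, 5 for Fk against Ra at 48 h and 3 for the change of the Ra effect. Called in either direction with centring were 0.995%, 0.229%, 16.8%, 6.82%, 14.5% and 3.02% of all genes in that order. Quantile normalization gave 2, 1, 8, 11, 5 and 1 in the same order. Without a filter there were 1 under Ra at 12 h and 10 under low Nnm at 24 h. The mean of probe sets gave 0 under CsA at 48 h and 7 for Fk against Ra at 48 h, and each set alone gave 0, 3 under Ra at 48 h and 1 for Fk against Ra at 48 h. Centred arrays without Ra 48 h replicate 2 gave 2 for Ra and 2 for Fk against Ra at 48 h. For the runs here other than centring the share of all genes called was not taken, so those counts have no background.

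With the replicate number as a block the counts were 3 under CsA at 48 h, 33 and 19 under low Nnm at 24 h and 48 h, 32 under high Nnm at 48 h, 27 in the CsA set controls and 1 in the Nnm set controls. Called in either direction were 4.39%, 18%, 13%, 27.4%, 24.1% and 0.704% of all genes in that order. In the Fk and Ra set 19 of 45 same-numbered pairs deviated together, so pairing there is undecided. In that set the block gave 3 under Ra at 12 h (0.678% of all genes) and 17 for Fk against Ra at 48 h (27%). It gave 24 in the controls (29.9%) and 2 for the change of the Ra effect (11.8%). It moved no other count by over 1.5 times. Centring and block together gave 3, 37, 24, 41, 27 and 2 in the order of the paired sets, and 10, 32 and 11 for Ra at 12 h, the controls and the change of the Ra effect. The share of all genes called was not taken for this combination.

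With 1 array left out at a time the counts ran from 0 to 2 under CsA at 48 h, 2 to 22 under Ra at 48 h, 3 to 16 and 1 to 11 under low Nnm at 24 h and 48 h, 16 to 42 and 7 to 28 under high Nnm, and 0 to 8 for high against low Nnm at 24 h. They ran from 2 to 24 for Fk against Ra at 48 h, 3 to 16 in the CsA set controls, 7 to 15 in the Fk and Ra set controls, 0 to 5 for the change of the Ra effect and 0 to 3 for that of high Nnm. The share of all genes called moved as well. At the ends of the range for high Nnm at 24 h it was 4.69% and 17.3% lower. For Ra at 48 h it was 3.47% and 24.4% lower. The cause of these moves was not tested. With 3 arrays per group and a median SE of 0.26, small differences can be missed.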
